A study of Homo sapiens with 9 samples.

Results

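The 10 genes described here belong to the BCL2 family, which sets whether a cell commits to the mitochondrial pathway of apoptosis. They were chosen by symbol, as 10 of the 27111 genes counted, and all 10 were among the 17108 genes with enough reads to be tested. RNA-seq had been performed on multicellular tumor spheroids (MTSs) of PC3, a human prostate cancer cell line derived from a bone metastasis. The 3 groups were PC3 cells stably transduced with an empty lentiviral vector (Empty), with the long isoform of NF-YA (NF-YAl) or with the short one (NF-YAs), and each group had 3 libraries. NF-YA is the DNA-binding subunit of NF-Y, the heterotrimeric transcription factor that recognizes the CCAAT box. Both transgenes encoded the murine protein, each line was obtained by puromycin selection, and every library came from pooled MTSs grown in a medium containing Matrigel. All 3 groups share the vector backbone and the selection, and the long and short lines also carry the endogenous human *NFYA* gene. The libraries of a group are named by the letters of the labels, A, B and C for Empty and NF-YAs and A, B and D for NF-YAl.

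Family members fall into 3 roles. Pro-survival proteins hold the pathway in check by binding the other members at the outer mitochondrial membrane. The effectors BAX and BAK form the pores through which cytochrome c leaves mitochondria, and BH3-only proteins start the process by occupying the groove of pro-survival proteins or by activating the effectors directly. In prostate cancer the family is known for the gain of BCL2 in tumors that progress under hormone therapy. Of the 10 genes, 4 are pro-survival (*BCL2*, *BCL2L1*, *MCL1*, *BCL2A1*), 2 are effectors (*BAX*, *BAK1*) and 4 are BH3-only (*BCL2L11*, *PMAIP1*, *BBC3*, *BID*).

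The libraries held 18076979 to 27163976 expected counts, and ribosomal RNA genes took 2.66% to 7.71% of them. *NFYA* was higher than in Empty in both lines, with a log2 fold change of 1.89 (SE 0.112) in NF-YAl and 1.51 (SE 0.111) in NF-YAs. Reads were aligned to human transcripts, so these counts can hold endogenous RNA and those murine transgene reads that aligned. They do not measure the dose of the transgene. *KLK3*, which encodes PSA and is not made by PC3, was at 0 in every library. Of 5 epithelial markers, 3 fell and 1 rose in NF-YAl, and 4 fell and 1 rose in NF-YAs. The keratin genes *KRT8*, *KRT18* and *KRT19* were lower than Empty in both lines, *KRT8* by 1.33 and by 0.78 on the log2 scale, yet stayed at 109 CPM or more in each library, while *EPCAM*, named after its values were seen, rose by 2.16 and 1.46 and *CDH1* fell by 1.33 in NF-YAs. Among leukocyte markers, *PTPRC*, *CD3E* and *CD14* were at or below 0.916 CPM and *LYZ*, without a call, was at 18.6 to 35.8 CPM. Of 6 fibroblast and endothelial markers, *DCN*, *LUM*, *PDGFRB* and *CDH5* were at or below 0.575 CPM, *VWF* fell from 6.87 to 0.725 CPM in NF-YAl and *PECAM1* from 6.27 to 1.88 CPM in NF-YAs. The part of these shifts in the members' changes was not tested. NF-YAl replicate D stood apart from the other libraries in its small RNAs, since *RN7SL1*, *RN7SL2* and *RN7SK* took 13.0% of its TPM against 26.7% to 40.5% elsewhere. Levels between libraries are therefore given as CPM, the counts scaled to library size with TMM factors, and TPM, which are also corrected for transcript length, are used to compare genes or transcripts within a library.

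Of the 10 members, *BCL2L1* and *MCL1* had the highest levels in Empty MTSs. On the length-corrected scale *BCL2L1* was at 188 ± 32.0 TPM (SD, n = 3) and *MCL1* at 94.6 ± 17.5 TPM, followed by *BAK1* at 53.4 ± 2.08, *PMAIP1* at 38.1 ± 2.41 and *BAX* at 26.3 ± 4.98. *BID* was at 13.2 ± 2.05 TPM, *BCL2A1* at 8.53 ± 0.847, *BCL2L11* at 4.85 ± 0.828 and *BBC3* at 1.44 ± 0.340. *BCL2* itself had the lowest level of the 10, 0.823 ± 0.196 TPM. This order was the same in each of the Empty libraries. In NF-YAs the order of neighbours differed between libraries for *PMAIP1* and *BAX*, *BAX* and *BCL2A1*, and *BBC3* and *BCL2*, and in NF-YAl for *BCL2L1* and *MCL1* and for *PMAIP1* and *BAK1*. *BCL2A1* stood above *BID* in each NF-YAs library, at 26.4 ± 3.53 against 15.0 ± 1.81 TPM, and below it in each library of the other groups.

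A gene was called higher or lower at an adjusted p under 0.01 (edgeR quasi-likelihood F test on all tested genes, Benjamini-Hochberg), and a differentially expressed gene (DEG) also had an absolute log2 fold change above 1. In NF-YAl against Empty, 1 of the 10 members was higher, *BCL2*, and 1 was lower, *BCL2L1*, where 19.6% of all tested genes were called, 10% higher and 9.54% lower, and 8.27% were DEGs. In NF-YAs against Empty, 1 member was higher, *BCL2A1*, and 1 was lower, *MCL1*, beside 22.6% of all genes, 12.1% higher and 10.5% lower, with 9.34% as DEGs. These counts of members are close to the shares over all genes. The 4 calls fell on 4 different genes, all of them pro-survival members. No member was called in both lines by edgeR without a replicate block, DESeq2 or limma, each fitted to all libraries. At 3 members the unadjusted edgeR p was under 0.05 in both. With edgeR fitted to only the groups compared, *BCL2L1* was called lower in both lines (adjusted p = 0.00394 and 0.00129). With edgeR on all libraries and their letters as a replicate block, *BCL2L1* was also called lower in both lines. The lines share the Empty libraries as controls. Between the lines themselves, 5 of the 10 members were called, 4 higher in NF-YAl and 1 lower, where 11% of all genes were called, 4.7% higher and 6.25% lower. Of the members, *BCL2*, *BBC3* and *BCL2A1* were DEGs, as were 4.61% of all genes. On log2(TPM + 0.5), limma called 0, 1 and 2 members in the 3 comparisons with TPM as deposited, and 2, 2 and 5 after the same TPM had been scaled by TMM, an alternative added after seeing the data. RNA was taken from whole MTSs, so fewer cells expressing a gene and less of its RNA per cell cannot be told apart.

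**Figure D1:**
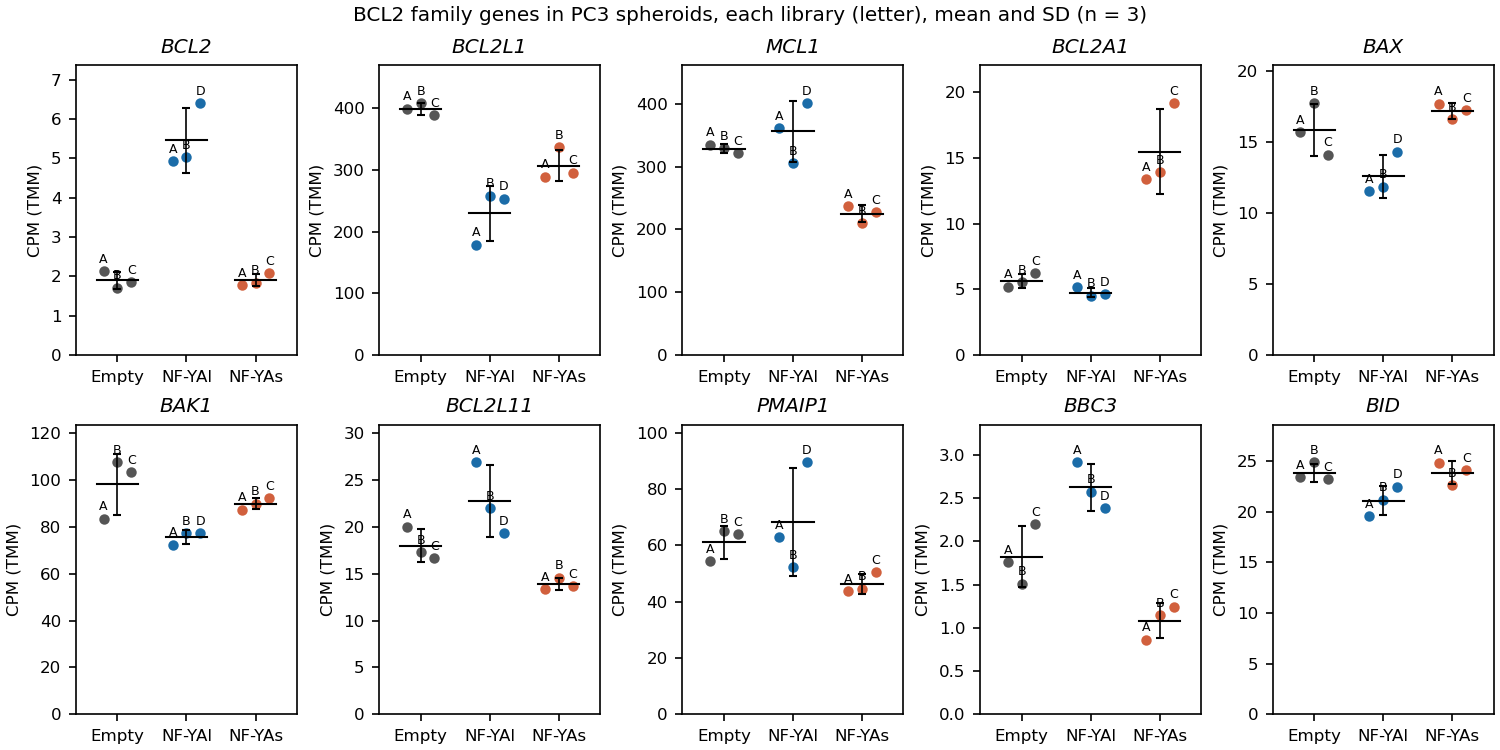
CPM after TMM scaling (vertical axes, linear from 0) of each of the 10 members in each library. Points are libraries with their letters, lines are group means and bars are SDs (n = 3). *BCL2* is high in the 3 NF-YAl libraries and *BCL2A1* in the 3 NF-YAs libraries, with no overlap with the other groups.

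*BCL2*, the founding pro-survival member, rose in NF-YAl, while its NF-YAs libraries overlapped Empty. Its level was 2.14, 1.71 and 1.85 CPM in Empty A, B and C, 4.93, 5.03 and 6.41 CPM in NF-YAl A, B and D, and 1.78, 1.84 and 2.07 CPM in NF-YAs A, B and C. Every NF-YAl library lay above all libraries of both other groups, whose ranges overlapped each other. The gene was a DEG in NF-YAl against Empty, with a log2 fold change of 1.52 (SE 0.200, adjusted p = 0.000139), or 2.87-fold. Against NF-YAs the log2 fold change was 1.52 (SE 0.204, adjusted p = 0.000372), and NF-YAs against Empty gave 0.00 (SE 0.213, adjusted p = 0.996). The gene was read at low depth, with 43 to 51 expected counts per Empty library and 93 to 156 per NF-YAl library. Without NF-YAl replicate D, the highest library, the log2 fold change against Empty was 1.39 (adjusted p = 0.000265).

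The change in *BCL2* was tied to one of its transcripts. *BCL2* lies on chromosome 18 from 60790579 to 60987361 of GRCh37, on the minus strand, and the files hold 2 transcripts of it, alpha of 6492 bases and beta of 1206 bases. Alpha joins the first coding exon to a distant last exon that encodes the hydrophobic tail by which BCL2 sits in membranes, whereas beta reads on past the end of the first coding exon and lacks that tail. The coding parts that differ, 132 bases for alpha at chr18:60795861-60795992 and 30 for beta at chr18:60985285-60985314, follow 585 shared coding bases. They are shown because the count of only one form moved, they come from GRCh37 and read 5′ to 3′ on the strand of the gene.
BCL2 alpha: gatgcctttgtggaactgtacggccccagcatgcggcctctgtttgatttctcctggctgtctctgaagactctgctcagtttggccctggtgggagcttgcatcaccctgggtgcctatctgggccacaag
BCL2 beta: gtaggtgcacttggtgatgtgagtctgggc

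The alpha transcript was at 1.59, 1.24 and 1.26 CPM in Empty, 4.37, 4.38 and 5.80 CPM in NF-YAl, and 1.11, 1.31 and 1.68 CPM in NF-YAs. The beta transcript was at 0.550, 0.467 and 0.594 CPM in Empty, 0.559, 0.648 and 0.608 CPM in NF-YAl, and 0.666, 0.529 and 0.391 CPM in NF-YAs. Alpha was thus higher in each NF-YAl library than in any other, while the ranges of beta overlapped in all 3 groups. As a share of the gene's TPM, alpha made up 29.7% ± 3.26 of *BCL2* for Empty, 56.9% ± 4.34 for NF-YAl and 30.7% ± 10.1 for NF-YAs (SD, n = 3). The NF-YAl share did not overlap either other group, and the exact permutation test, two-sided, gave p = 0.1 in both comparisons, the smallest that 3 against 3 can reach. Of 33 member transcripts whose shares were compared, 7 did not overlap in NF-YAl against Empty and 6 did not between the lines. Beta rested on only 8.49 to 15.8 expected counts per library, and a beta read is assigned over a far shorter transcript. Since the mean length of *BCL2* transcripts moved with alpha, a fit with effective length as an offset gave a smaller log2 fold change for NF-YAl against Empty, 0.89 (SE 0.195, adjusted p = 0.00434).

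**Figure D2:**
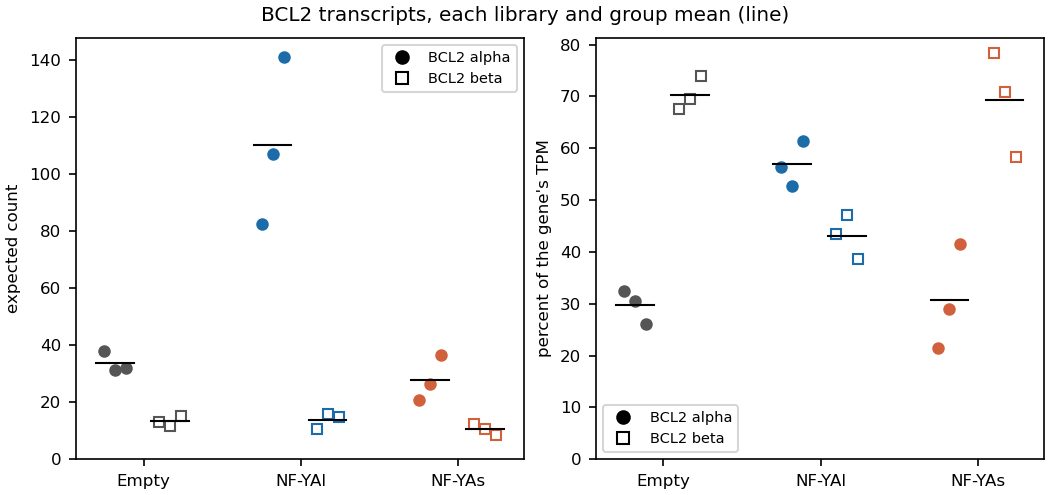
Left, expected counts of the *BCL2* alpha (filled circles) and beta (open squares) transcripts in each library. Right, their shares of the TPM of the gene. Lines are group means (n = 3). The alpha counts of NF-YAl, 82.5 to 141, lie above all others, while beta stays between 8.49 and 15.8 in every library.

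*BCL2L1*, which encodes BCL-XL, had the highest mean TPM of the pro-survival members in each group, though *MCL1* exceeded it in NF-YAl replicate A, and it fell in NF-YAl. The level was 400, 409 and 389 CPM in Empty, 179, 258 and 254 CPM in NF-YAl and, for NF-YAs, 289, 337 and 296 CPM. The ranges of the 3 groups did not overlap, with Empty highest and NF-YAl lowest. NF-YAl against Empty gave a log2 fold change of -0.79 (SE 0.133, adjusted p = 0.000740), a level 0.577 times that of Empty. In NF-YAs the value was -0.38 (SE 0.132, adjusted p = 0.0422), and between the lines -0.42 (SE 0.132, adjusted p = 0.0400), both short of the threshold. The fall in NF-YAs was called without NF-YAl replicate A (adjusted p = 0.00273) and with only the NF-YAs and Empty libraries in the fit (adjusted p = 0.00129), at the same log2 fold change of -0.38. With a replicate block, the fall in NF-YAs and the difference between the lines were both called. Bcl-xS, the short spliced form that antagonizes BCL-XL, took 3.74% ± 1.12 of the gene's TPM for Empty, 3.60% ± 1.08 for NF-YAl and 2.61% ± 0.624 for NF-YAs, with overlapping ranges. The *BCL2L1* transcripts of 2804 and 2792 bases took smaller mean shares in NF-YAl, 6.70% and 12.5%, than in Empty, 10.8% and 14.9%. For both, the NF-YAl libraries lay below those of Empty, while NF-YAs overlapped Empty. *BCL2L1* overlaps *ABALON* on the opposite strand.

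*MCL1*, a pro-survival member with a short-lived protein, fell in NF-YAs. It was at 335, 329 and 322 CPM in Empty, 361, 306 and 402 CPM in NF-YAl and, for NF-YAs, 237, 211 and 228 CPM. All NF-YAs libraries lay below those of both other groups, and the NF-YAl libraries lay on both sides of the Empty range. Against Empty, the log2 fold change was -0.55 for NF-YAs (SE 0.107, adjusted p = 0.00189) and 0.12 for NF-YAl (SE 0.107, adjusted p = 0.449). NF-YAl exceeded NF-YAs by 0.66 (SE 0.107, adjusted p = 0.00119). Without NF-YAs replicate B, the lowest library, both calls were lost, at log2 fold changes of -0.50 against Empty (adjusted p = 0.0144) and 0.61 between the lines (adjusted p = 0.0105). *MCL1* overlaps *ADAMTSL4-AS1* on the same strand and *ADAMTSL4* on the opposite strand. The long *MCL1* transcript, which encodes the pro-survival protein, took between 84.8% and 97.8% of the TPM of *MCL1*. The short transcript, whose product is known to promote death, took 5.22% ± 0.456 (Empty), 2.03% ± 0.460 (NF-YAl) and 3.86% ± 1.53 (NF-YAs), and the NF-YAl libraries lay below those of Empty (exact permutation test, two-sided, p = 0.1, the smallest possible).

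*BCL2A1*, which encodes A1/BFL-1, a pro-survival member best known as an NF-kappaB target of blood cells, rose in NF-YAs. It was at 5.20, 5.52 and 6.22 CPM in Empty, 5.15, 4.50 and 4.60 CPM in NF-YAl, and 13.4, 13.9 and 19.2 CPM in NF-YAs. The lowest NF-YAs library was well above the highest of the others, and each NF-YAl library lay just below the Empty range. The gene was a DEG in NF-YAs against Empty, with a log2 fold change of 1.45 (SE 0.169, adjusted p = 4.79e-05), or 2.74-fold. NF-YAl against Empty gave -0.25 (SE 0.175, adjusted p = 0.300), and NF-YAl against NF-YAs gave -1.71 (SE 0.172, adjusted p = 5.35e-05), a 3.27-fold higher level in NF-YAs. Both calls held in all 18 alternative fits, more than for any other member. The leukocyte gene *PTPRC* was between 0.184 and 0.269 CPM in the NF-YAs libraries and between 0.236 and 0.377 CPM in Empty, near 0 in both, and *LYZ* averaged 20.6 and 25.8 CPM.

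The pool of the 4 pro-survival members was thus made up differently in the 3 lines. Of its summed TPM within a library, *BCL2L1* took 64.4% ± 0.566 (Empty), 49.3% ± 6.67 (NF-YAl) and 61.8% ± 3.45 (NF-YAs). *MCL1* took 32.4% ± 0.486, 46.7% ± 6.28 and 27.7% ± 2.52 in the same order, so that its share was above the Empty range in each NF-YAl library and below it in each NF-YAs library. *BCL2A1* took 2.95% ± 0.322, 3.32% ± 0.586 and 10.2% ± 2.01. Even in NF-YAl, *BCL2* was a small part of the pool, 0.684% ± 0.0131 against 0.281% ± 0.0323 in Empty and 0.347% ± 0.0507 in NF-YAs.

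**Figure D3:**
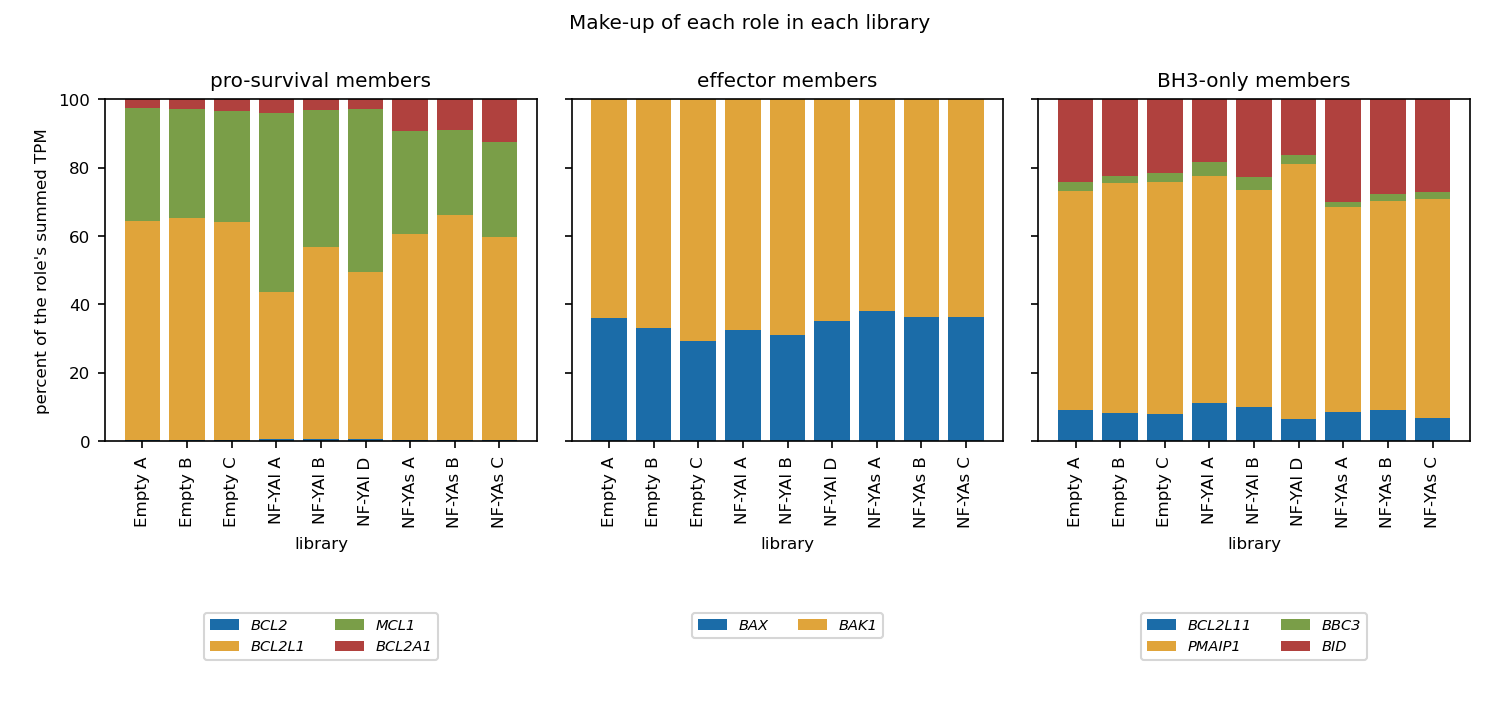
Percent of the summed TPM of the pro-survival, effector and BH3-only members (vertical axis) taken by each gene in each library (stacked bars). The *MCL1* part is widest in the NF-YAl libraries, and the *BCL2A1* part reaches 8.85% to 12.5% in the NF-YAs libraries. *BAK1* takes 61.8% to 70.8% of the summed TPM of *BAX* and *BAK1* in every library.

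Neither effector was called in any comparison by edgeR fitted to all libraries without a replicate block, where 2, 0 and 2 of them had an unadjusted p under 0.05. DESeq2 called *BAK1* lower in NF-YAl. Both limma on TMM-scaled TPM and edgeR with a replicate block called *BAX* lower in NF-YAl than in NF-YAs. *BAK1*, whose product resides at mitochondria, was between 83.5 and 108 CPM in Empty, 72.5 and 77.4 CPM in NF-YAl, and 87.4 and 92.3 CPM in NF-YAs. Its NF-YAl libraries lay below all others, with a log2 fold change of -0.37 against Empty (SE 0.104, adjusted p = 0.0162), which passed the threshold without Empty replicate A (adjusted p = 0.00438). *BAX*, whose product moves from the cytosol to mitochondria, was between 14.1 and 17.8 CPM in Empty, 11.6 and 14.3 CPM in NF-YAl, and 16.6 and 17.7 CPM in NF-YAs. Its log2 fold change against Empty was -0.33 for NF-YAl (SE 0.131, adjusted p = 0.0730) and 0.12 for NF-YAs (SE 0.130, adjusted p = 0.519), and the lines differed from each other by -0.45 (SE 0.132, adjusted p = 0.0286). The last value passed the threshold without NF-YAl replicate D (adjusted p = 0.00734).

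No BH3-only member was called against Empty by edgeR without a replicate block, DESeq2 or limma, each fitted to all libraries. The unadjusted edgeR p was under 0.05 for 2 of the 4 in NF-YAl and 3 in NF-YAs, and 2 were called between the lines. *BBC3*, which encodes PUMA, was at 1.76, 1.51 and 2.20 CPM in Empty, 2.92, 2.58 and 2.38 CPM in NF-YAl, and 0.862, 1.14 and 1.24 CPM in NF-YAs. The 3 groups did not overlap, with NF-YAl above and NF-YAs below Empty. NF-YAl exceeded NF-YAs by a log2 fold change of 1.26 (SE 0.253, adjusted p = 0.00424), or 2.40-fold, where the former gave 0.52 against Empty (SE 0.236, adjusted p = 0.115) and the latter gave -0.74 (SE 0.257, adjusted p = 0.0401). It rested on 16 to 27 expected counts per NF-YAs library. The call between the lines was lost without any single NF-YAs library (adjusted p = 0.0219, 0.0183 and 0.0143 without A, B and C) or without NF-YAl replicate B (adjusted p = 0.0122), and with Empty left out of the fit (adjusted p = 0.0110), at log2 fold changes of 1.12 to 1.38.

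*BCL2L11*, which encodes BIM, an activator of BAX and BAK, was at 20.01, 17.3 and 16.7 CPM in Empty, 26.9, 22.0 and 19.3 CPM in NF-YAl, and 13.4, 14.6 and 13.6 CPM in NF-YAs. The NF-YAs libraries were the lowest of all, and the NF-YAl and Empty ranges overlapped. NF-YAl compared with NF-YAs gave a log2 fold change of 0.71 (SE 0.138, adjusted p = 0.00352). Against Empty the values were 0.33 for NF-YAl (SE 0.136, adjusted p = 0.0798) and -0.38 for NF-YAs (SE 0.138, adjusted p = 0.0512). This call, too, was lost without any single NF-YAs library, with adjusted p = 0.0187, 0.0145 and 0.0213 without A, B and C and log2 fold changes of 0.68 to 0.75. It was also lost with Empty left out of the fit (0.71, adjusted p = 0.0123), with effective length as an offset (0.54, adjusted p = 0.0177) and by limma on TPM, whether deposited (0.60, adjusted p = 0.288) or scaled by TMM (0.49, adjusted p = 0.0298). The fall in NF-YAs was called with only the NF-YAs and Empty libraries in the fit (adjusted p = 0.00936). The 18 transcripts of the gene took shares that varied widely between libraries of a group, and *BCL2L11* overlaps *MIR4435-2HG* on the opposite strand.

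*PMAIP1*, which encodes NOXA, the partner of MCL1, was between 54.2 and 65.0 CPM in Empty, 52.2 and 89.5 CPM in NF-YAl, and 43.8 and 50.3 CPM in NF-YAs. The top value was that of NF-YAl replicate D, without which the difference from Empty turned from 0.16 to -0.09 on the log2 scale, neither of them called (adjusted p = 0.501 and 0.592). NF-YAs against Empty gave -0.40 (SE 0.166, adjusted p = 0.0796), called where NF-YAl replicate D was left out of the fit (adjusted p = 0.00766) or all of NF-YAl was (adjusted p = 0.00193). The edgeR fit of all libraries with a replicate block called this fall as well. Between the lines the value was 0.56 (SE 0.166, adjusted p = 0.0298), with adjusted p = 0.00828 without NF-YAl replicate B. *BID*, the link from death receptors to mitochondria, was the steadiest member, between 19.6 and 24.9 CPM in all libraries, with log2 fold changes of -0.18, 0.00 and -0.18 in the 3 comparisons.

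**Figure D4:**
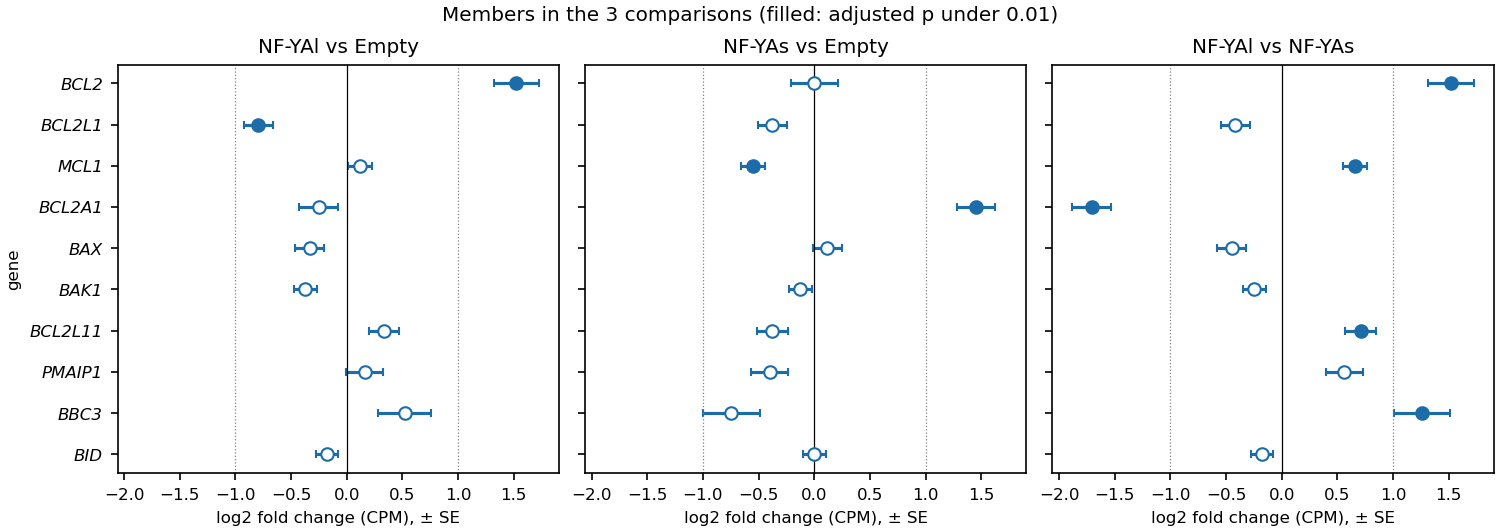
Log2 fold changes (horizontal axis, bars are ± SE) of the 10 members for each line against Empty (left and middle panels) and for the lines against each other (right panel). Filled points had an adjusted p under 0.01 and dotted lines mark a log2 fold change of 1 in either direction. *BCL2* at 1.52 is filled in the outer panels, *BCL2A1* at 1.45 in the middle one and at -1.71 in the right one.

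Across the 10 members the median log2 fold change was -0.03 in NF-YAl, -0.25 in NF-YAs and 0.19 between the lines, beside 0.01, 0.00 and 0.02 over all tested genes. The libraries did not overlap for 6 members in NF-YAl against Empty, where 42.4% of all tested genes did not, and for 6 members in NF-YAs against Empty, beside 56.4%. Between NF-YAl and NF-YAs none of the 10 members overlapped, beside 39.5% of all genes. In NF-YAl compared with NF-YAs, 5 members had positive and 5 negative log2 fold changes, called or not. The values were positive for *BCL2* and *MCL1* and negative for *BCL2L1* and *BCL2A1* among pro-survival members. They were negative for both effectors, and positive for all BH3-only members but *BID*.

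Since PC3 cells carry many chromosomal gains and losses, each member was set beside the tested genes around it, 50 on each side where the chromosome held them (GRCh37). The neighbours of *MCL1*, on chromosome 1 from 150533371 to 150552214, had a median log2 fold change of -0.37 in NF-YAs against Empty, beside -0.55 for *MCL1*. Between NF-YAl and NF-YAs these neighbours were at 0.29, beside 0.66 for *MCL1*. The genes around *MCL1* were therefore lower in NF-YAs as well. On chromosome 18 the 89 neighbours of *BCL2* were at -0.04 in NF-YAl, -0.25 in NF-YAs and 0.39 between the lines. On the log2 scale *BCL2* exceeded them by 1.56 when NF-YAl was compared with Empty and by 1.13 between the lines. With 20 genes on each side, the neighbours in NF-YAl against Empty had a median of 0.16 and an upper quartile of 1.13. *PMAIP1*, at 57567228 to 57571537 of the same chromosome, has many of the same neighbours, whose medians of -0.28 in NF-YAs and 0.39 between the lines lay close to its own -0.40 and 0.56. The neighbours of *BCL2A1*, on chromosome 15 from 80253234 to 80263538, were at 0.02 in NF-YAs and 0.08 between the lines, far from its 1.45 and -1.71. Those of *BBC3* and *BCL2L11* were at -0.09 and -0.11 between the lines, opposite in sign to the genes. Whether DNA copy number differed between the lines was not tested.

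**Figure D5:**
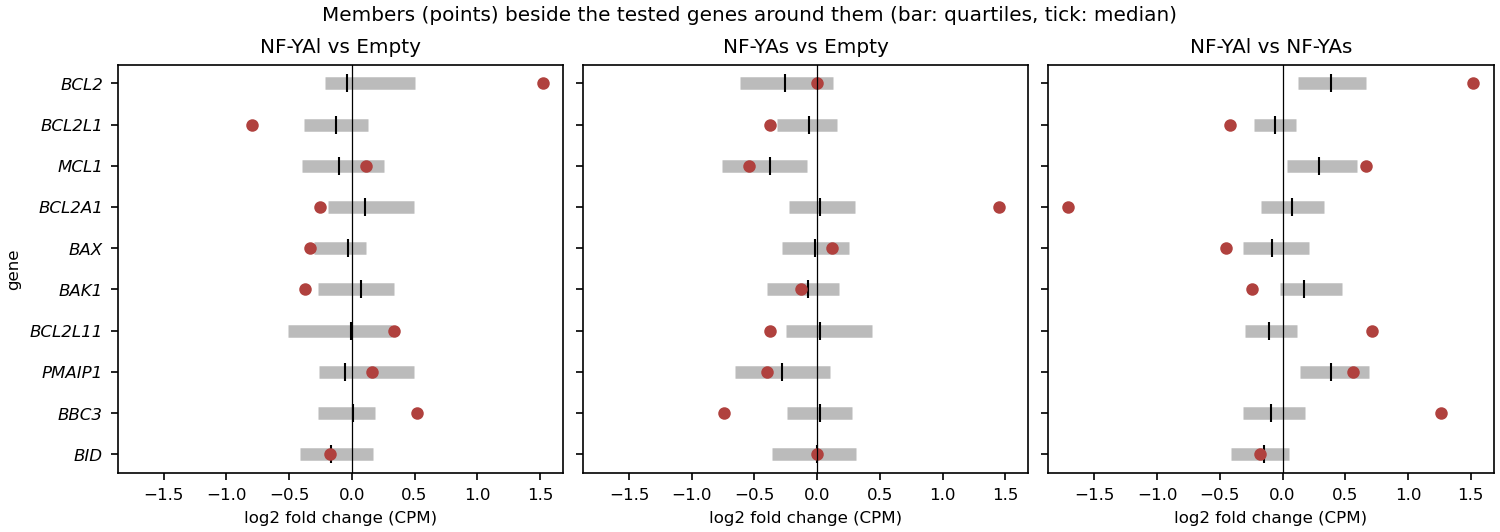
Log2 fold change (horizontal axis) of each member (red points) beside the median (tick) and quartiles (grey bar) of up to 50 tested genes on each side of it on its chromosome. *BCL2* and *BCL2A1* lie far outside their bars where they were called, whereas *MCL1* in NF-YAs against Empty, at -0.55 beside a median of -0.37, lies within its own.

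NF-Y binds the CCAAT box, so this pentamer was looked for on both strands (letters CCAAT or ATTGG) in the 250 bases before each start site in the RefSeq promoter table. The table had 14 windows for 9 of the 10 members and none for *MCL1*, which was not searched. The box was held by 4 of the 14 windows (28.6%), beside 32.0% of all 35116 windows. These belonged to *BCL2L11*, *BBC3*, *BAX* and *BAK1*. The windows of *BCL2*, *BCL2L1*, *BCL2A1*, *PMAIP1* and *BID* held none. All bases of the *BCL2* window lie in annotated exons, inside the annotated span of *BCL2*. The sites, 25 bases each, are shown with the box in capitals because they are the only matches among the 9 members searched. They read 5′ to 3′ on the strand of the gene, on which all of them appear as ATTGG. Each window of the table (GRCh38.p14) was matched once to GRCh37, where the sites lie at chr2:111878423-111878447 for *BCL2L11*, chr19:47735997-47736021 for *BBC3*, chr19:49457919-49457943 and chr19:49457974-49457998 for *BAX*, and chr6:33548241-33548265 for *BAK1*.
BCL2L11, 58 bases before the start, plus strand: gtccgcagtgATTGGgcgtaggagc
BBC3, 87 bases before the start, minus strand: ggcgattgcgATTGGgtgagaccca
BAX, 203 bases before the start, plus strand: tagagctgcgATTGGacggacggct
BAX, 148 bases before the start, plus strand: ggagatgctcATTGGacagtcacgt
BAK1, 202 bases before the start, minus strand: tgggttttttATTGGtattgattga

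All bases of the *BBC3* site lie in annotated exons, inside the annotated span of *BBC3*. Of the genes with the box, *BBC3* and *BCL2L11* were called higher in NF-YAl than in NF-YAs. *BAX* and *BAK1*, with 2 and 1 matches, had no call in the edgeR fit of all libraries without a replicate block. *BCL2* and *BCL2A1*, the DEGs against Empty, had no match in their windows. The window before the start of *BCL2A1*, at chr15:80263539-80263788 of GRCh37 on the minus strand, is shown because this gene had the lowest adjusted p of the members and its window holds no exon.
BCL2A1: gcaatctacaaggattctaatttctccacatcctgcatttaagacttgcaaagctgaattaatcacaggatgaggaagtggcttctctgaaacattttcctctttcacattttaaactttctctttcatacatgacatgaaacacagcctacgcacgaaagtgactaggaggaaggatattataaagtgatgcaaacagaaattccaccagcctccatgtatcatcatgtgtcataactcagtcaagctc

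Other genes of the apoptotic pathway were taken from lists chosen by function. Among the 10 tested of 11 further BCL2-family genes, *BMF*, a BH3-only member known for sensing detachment from the matrix, rose in both lines. NF-YAl had 40.1 CPM (log2 fold change 1.31, SE 0.178, adjusted p = 0.000184) and NF-YAs 31.9 CPM (log2 fold change 0.98, SE 0.178, adjusted p = 0.00116), beside 16.2 CPM for Empty. *BCL2L13* fell in both, by 0.43 and 0.37 on the log2 scale. The third call was *HRK* in NF-YAs, at a mean of only 0.541 CPM, named here after its values were seen. Between the lines edgeR and DESeq2 called 0 of the 10, at 3 with an unadjusted p under 0.05, and limma on TMM-scaled TPM called 1. Of 14 genes whose products bind or regulate the family, 3 fell in NF-YAl, and 3 fell and 1 rose in NF-YAs. The lower genes were the mitochondrial channels *VDAC1* and *VDAC2* and the mitophagy receptor *BNIP3* in both lines, and the higher one was the co-chaperone *BAG3*, with a log2 fold change of 1.08 in NF-YAs against Empty and -0.98 between NF-YAl and NF-YAs.

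Downstream of mitochondria, none of the 7 tested caspase genes was called against Empty in either line, at a median log2 fold change of -0.08 in NF-YAl and 0.09 in NF-YAs. DESeq2 and limma also called 0, and 1 of the 7 had an unadjusted p under 0.05 in each line. Between the lines *CASP10*, an initiator caspase of death receptors, was lower in NF-YAl (-0.73, SE 0.159, adjusted p = 0.00680). Among 13 tested genes of the apoptosome and of the caspase inhibitors, 1 rose and 3 fell in NF-YAl, and 2 rose and 3 fell in NF-YAs. *XAF1*, which encodes an antagonist of XIAP, was the DEG in NF-YAl, where it fell by 1.45 (SE 0.294, adjusted p = 0.00265), and *NAIP*, an inhibitor of apoptosis, rose there by 0.61. *APAF1*, the scaffold of the apoptosome, fell by 0.46 in NF-YAl and by 0.65 in NF-YAs, and *AIFM1*, an oxidoreductase of the intermembrane space, fell by 0.93 and by 0.72. The caspase inhibitor *XIAP* fell by 0.55 in NF-YAs, where the protease *HTRA2*, named after its values were seen, rose by 0.53 and *BIRC3*, an inhibitor of apoptosis and NF-kappaB target like *BCL2A1*, rose by 1.298 (SE 0.237, adjusted p = 0.00118). Of 12 tested death receptor genes, 2 fell in NF-YAl, and 3 fell and 1 rose in NF-YAs. The adaptor *TRADD* fell in both lines, by 0.84 and 0.85, and the TRAIL receptor *TNFRSF10B* was the one that rose, by 0.52 in NF-YAs.

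Among 16 tested transcription factors and regulators known to act on the family, 3 rose and 1 fell in NF-YAl. *MITF*, a known activator of *BCL2* and *BCL2A1* in melanocytes, rose by 1.24, *TP63* by 1.19 and *FOXO1*, an activator of *BCL2L11*, by 0.96, while *DDIT3*, the stress factor CHOP, fell by 0.86. In NF-YAs 2 fell, *DDIT3* by 1.09 and the stress factor *ATF3* by 2.03. The proliferation marker *MKI67* was lower in NF-YAl than in NF-YAs, by 0.85 on the log2 scale (SE 0.165, adjusted p = 0.00357), which moved with the calls between the lines, and its part in them was not tested.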

How the data were processed

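RNA-seq data came from MTSs of the Empty, NF-YAl and NF-YAs PC3 lines. The authors aligned reads to GRCh37 (hg19) RefSeq transcripts with bowtie2 within RSEM and deposited, per gene and transcript, expected counts, which are estimates of reads that RSEM shared among transcripts, unnormalized, TPM, scaled to the same total per library, and each transcript's percent share of the TPM of its gene. FPKM, which the authors also deposited, were not used. The deposited effective lengths (in bases) served only as an offset.

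After rounding, the expected counts of all libraries entered a single edgeR 4.0.16 fit (R 4.3.3) with filterByExpr, TMM scaling and quasi-likelihood F tests, and p-values were adjusted by Benjamini-Hochberg. SE is |log2FC| over the square root of F. DESeq2 1.42.0 and limma 3.58.1 on log2(TPM + 0.5) were alternatives. The edgeR steps were tested on simulated data for NF-YAl against Empty, where 199 of 200 changed genes among 17108 were recovered, with 4 false calls. The changed genes had means above 5 CPM and larger changes than most members. Recovery of smaller changes, or at the low levels of *BCL2* and *BBC3*, was not tested. The members, gene lists and tests were chosen with earlier results of these data known. All 10 members are named, and from each other list up to 4 called genes per comparison with the largest |log2FC|, non-overlapping libraries and 5 CPM or more on average in the higher group, in part, plus *NFYA* and *MKI67*. Some genes are not reported here. Replicates came from independent experiments. Antisense partners cannot be told apart where strand was not used in counting, and the strand setting is not given in the sources used here. Besides the overlaps named above, *BAK1* overlaps *GGNBP1* and *BBC3* overlaps *MIR3191* on the opposite strand. *BID* overlaps *MIR3198-1* on the same strand. Promoter windows are RefSeq's (GRCh38.p14), and positions are from GENCODE on GRCh37. Sequences of *MCL1* are not shown.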

Additional observations from a re-analysis of the deposited data

Results flagged for a closer look

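For 5 of the 10 members the NF-YAl and NF-YAs lines differed in the direct comparison. Isoform and transduced line coincide in this design, so their parts cannot be told apart. The log2 fold change of NF-YAl against NF-YAs was 1.52 for *BCL2*, 0.66 for *MCL1*, 0.71 for *BCL2L11* and 1.26 for *BBC3*, all higher in NF-YAl, and -1.71 for *BCL2A1*, higher in NF-YAs. The calls for *BCL2L11* and *BBC3* were lost without any one of the NF-YAs libraries, and that for *MCL1* without NF-YAs replicate B.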

How the results depend on the processing

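Over 18 alternative fits and 2 other thresholds, 541 of the members' log2 fold changes kept their sign and side of the threshold, 20 gained a call, 23 lost one and 16 changed sign. None of the values that changed sign was called. In NF-YAl against Empty, limma on deposited TPM gave 0.0541 for *BCL2A1* and 0.13 for *BID*, and *PMAIP1* was at -0.0381 with a replicate block and between -0.0853 and 0.32 when 1 library was left out. In NF-YAs against Empty, *BCL2* was at -0.0005 with at least 10 counts per library, -0.0248 with effective lengths, -0.0143 with TMM-scaled TPM and -0.0699 to 0.0979 with 1 library left out. *BID* was at -0.0012 with at least 10 counts and -0.024 to 0.0393 with 1 library left out, and *BAK1* at 0.0554 on deposited TPM. In NF-YAl against Empty, the 1 member higher became 0 on deposited TPM. The 1 lower became 2 with DESeq2 or an adjusted p under 0.05, 0 on deposited TPM or under the DEG rule, and 1 to 2 with 1 library left out. In NF-YAs against Empty, the 1 lower became 4 in a fit of those groups alone, 3 with a replicate block or an adjusted p under 0.05, 0 on deposited TPM or under the DEG rule, and 0 to 2 with 1 library left out, 0 without NF-YAs replicate B and 2 without NF-YAl replicate A or D. Between the lines, the 4 higher became 2 in a fit of those groups alone or under the DEG rule, 1 on deposited TPM, 3 with effective lengths or TMM-scaled TPM, and 1 to 4 with 1 library left out. The 1 lower became 3 with a replicate block or an adjusted p under 0.05, 2 on TMM-scaled TPM, and 1 to 2 with 1 library left out, 2 without NF-YAl replicate D. The alpha share of *BCL2* in NF-YAl exceeded that in Empty by 27.2 percentage points of TPM and by 17.1 of expected counts. On deposited TPM, *BAK1* had 0.968 TPM per CPM in NF-YAl replicate D and 0.494 to 0.679 elsewhere, and with TMM scaling of TPM the lost call was that of *BCL2L11* between the lines. The residuals of 7 pairs of libraries with the same letter correlated at -0.07 to 0.25, with a mean of 0.09. For 20 pairs with different letters the range was -0.22 to 0.16 and the mean -0.03. Of 6 Empty and NF-YAs libraries, 4 correlated best with their own letter. The labels do not say whether a letter marks a shared experiment, and the main fit had no block. With the block, calls were gained by *BCL2L1* (adjusted p = 0.00748) and *PMAIP1* (adjusted p = 0.00691) in NF-YAs against Empty and by *BCL2L1* (adjusted p = 0.00565) and *BAX* (adjusted p = 0.00756) between the lines. Depth limits *BCL2* and *BBC3*, with under 60 counts per library in some groups.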
